A study of Fragaria vesca with 12 samples.

Results

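The 23966 peaks of N6-methyladenosine (m6A) listed for wild-type (WT) fruit of the diploid strawberry Fragaria vesca are described here, with the input RNA of the genes that carry them. They are all the peaks of the list that the authors made by comparing WT immunoprecipitated RNA (IP) with WT input RNA, out of 48834 peaks over both genotypes of the study. The other 24868 peaks belong to the Fvalkbh10b mutant, which is used below only for comparison. Fruit of both genotypes was taken at 27 days post anthesis (DPA), with 3 biological replicates each of input and IP, 12 libraries in all. The labels name the mutant Fvalkbh10b and the controls WT, and the sources used here do not say what kind of mutation it is, how many lines were grown or under what treatment.

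m6A is a methyl group on adenosines of mRNA. A methyltransferase complex writes it, dioxygenases of the AlkB family remove it, and proteins with a YTH domain bind it. In plants, as in animals, the mark is known to lie mostly in the last part of the transcript, around the stop codon and in the 3' UTR, and in fruits it has been tied to ripening.

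In m6A-seq, fragmented mRNA is precipitated with an antibody against m6A, and a peak is a stretch of a transcript with more IP than input reads. The authors give each peak a log2 ratio of IP over input, called enrichment below, and that value is theirs throughout. Replicates were pooled in the list, which carries no value per IP library, so no enrichment below has an error or a test. Input RNA is given as FPKM (fragments per length of exon and per library total), which corrects for length but leaves the depth of each library unknown. The WT input columns summed to 467174 to 469664 FPKM, and 14601 of 21927 genes had a mean of at least 1 FPKM and are called expressed.

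The labels say fruit and give an age, not a stage. Genes of the ripening receptacle (pectate lyases, polygalacturonases and others, 78 genes, of which 13 were listed at 0) summed to 7647 to 7742 FPKM in the WT libraries and to 1463 to 1473 FPKM in the mutant. Green tissue genes (28 genes, 5 at 0) summed to 154 to 156 FPKM in WT and 2368 to 2501 FPKM in the mutant. Achene and seed genes (34 genes, 2 at 0) summed to 707 to 722 FPKM in WT and 470 to 504 FPKM in the mutant, so achene genes were part of the WT input RNA. Genes of lignified vascular tissue (43 genes, 10 at 0) summed to 177 to 197 FPKM in WT and 254 to 255 FPKM in the mutant. The groups did not overlap in any of the 4 sums. Of all genes tested with limma (adjusted p under 0.05), 48.3% were higher and 19.1% lower in the mutant. Single genes weighed much in the receptacle sum: FvH4_4g05760 had means of 2730 FPKM in WT and 95.9 FPKM in the mutant, and FvH4_6g41380 2035 and 0.87 FPKM. Another member, FvH4_7g20920, went the other way, at 5.87 and 7.01 FPKM. Members were not counted by direction, and the part of tissue makeup in the results below was not tested. In such bulk fruit, fewer cells of a type and less RNA per cell cannot be told apart. No gene description names ALKBH10B. The gene FvH4_2g24110, annotated with m6A dioxygenase activity and picked with its values known, was at 30.27, 28.53 and 31.03 FPKM in the WT libraries. The mutant libraries gave 3.75, 3.84 and 5.34 FPKM (log2 change -2.56, adjusted p = 3.01e-08, limma), and the sources used here do not tell whether it is the mutated gene.

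Most WT peaks, and nearly all strong ones, lay in 3' UTRs. The 3' UTR held 13055 peaks (54.5%), exons outside the UTRs, called coding exons here, held 7167 (29.9%), and the 5' UTR held 3744 (15.6%). The median enrichment on the log2 scale was 3.01 in 3' UTRs, 1.32 in coding exons and 1.28 in 5' UTRs. A peak is called strong below at a log2 enrichment of 3 or more, an 8-fold ratio. By that measure 7161 peaks (29.9%) were strong, of which 92.7% lay in 3' UTRs, 5.53% in coding exons and 1.79% in 5' UTRs. At the threshold, 76 peaks stood at 2.99 and 58 at 3 exactly.

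**Figure D1:**
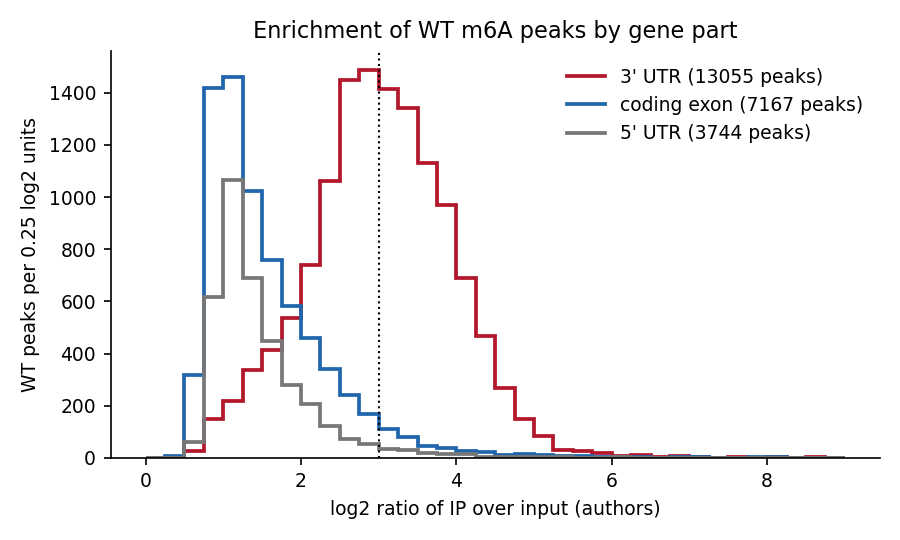
Number of WT peaks (vertical axis) by log2 ratio of IP over input (horizontal axis, steps of 0.25) for the 3 gene parts; the dotted line marks the threshold for a strong peak. The 3' UTR peaks centre on a median of 3.01, and the coding exon and 5' UTR peaks on 1.32 and 1.28, with a tail to the right.

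The makeup of the list therefore changed with enrichment. Among the 2596 weakest peaks, under log2 1, 67.1% were in coding exons and 6.74% in 3' UTRs. The 3' UTR share was 19.3% from log2 1 to 2, 74.1% from 2 to 3, 93.0% from 3 to 4 and 94.3% from 4 to 5. It was lower again, at 77.2%, among the 263 peaks at log2 5 or more, where coding exons held 19.0%. Many of those very high ratios came from genes with little input RNA: 111 of the 263 peaks were in genes under 1 FPKM, and 33 in genes that the expression table does not list. Of 1628 genes listed at 0 FPKM in all 3 WT input libraries, 62 carried a peak, and 36 of these carried a strong one. At 27 of the 62, the peak lay over a gene of the opposite strand.

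The difference between gene parts also held inside single genes. In the 2768 genes, expressed or not, with both a 3' UTR and a coding exon peak, the strongest 3' UTR peak exceeded the strongest coding exon peak in 94.9%, with a median difference of 1.84 on the log2 scale. Against the 5' UTR it was higher in 94.2% of 2790 genes, with a median difference of 1.79. Coding exon and 5' UTR peaks of one gene were close: the coding exon peak was higher in 42.9% of 1053 genes, with a median difference of -0.07.

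Within the 3' UTR, many peaks sat at the very end of the annotated gene, though not most. Of the 3' UTR peaks whose gene is in the expression table, 46.6% ended within 50 bases of the gene's 3' end, and the median distance was 75 bases. A further 21.1% ended 200 to 500 bases from that end, and 17.4% at 500 bases or more. Peaks that ended less than 50 bases from the gene end had a median log2 enrichment of 3.35, those at 50 to 200 bases 3, those at 200 to 500 bases 2.60 and those further away 2.58. Length moved the same way, from a median of 655 bases in the nearest to 375 bases in the farthest peaks, and its part in the enrichment was not tested. Peak length is a span on the genome and can hold introns.

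**Figure D2:**
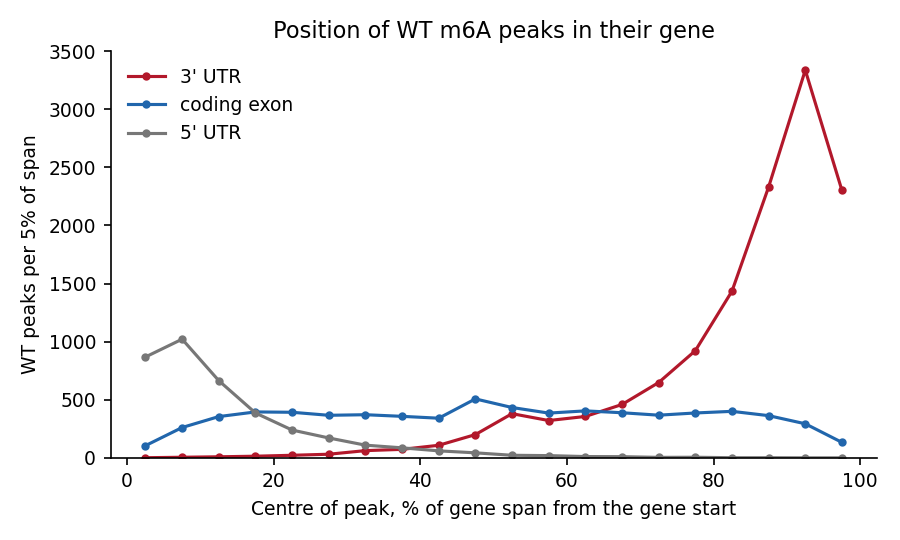
Number of WT peaks (vertical axis) by the position of their centre along the gene span from start to end (horizontal axis, in steps of 5%). The 3' UTR peaks pile up near the gene end, 72.3% of them in the last 20% of the span; 79.0% of the 5' UTR peaks sit in the first 20%, and coding exon peaks are spread between.

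Coding exon peaks were spread along the gene, with 15.9% in the first 20% of the span and 17.0% in the last 20%. Those that reached within 50 bases of the gene end (1056 peaks) had a median log2 enrichment of 1.85 and were strong in 11.8%, against 1.25 and 3.15% for the others. Their genes were short, with a median span of 1740 bases against 4146 bases. Peaks over a gene of the opposite strand made up 7.61% of all peaks and 11.9% of the strong ones. The labels do not state whether the libraries keep strand, so reads of such gene pairs cannot be told apart.

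Of the expressed genes, 12341 (84.5%) carried at least 1 peak, and 2260 (15.5%) carried none. A strong peak was found in 5927 genes (40.6%), and 2 or more peaks in 6099 (41.8%). By gene part, 66.6% had a 3' UTR peak, 32.4% a coding exon peak and 23.2% a 5' UTR peak. A 3' UTR peak with no other was the commonest state, in 5244 genes, ahead of no peak at all, a coding exon peak alone (1962 genes), 3' with 5' UTR (1913) and 3' UTR with coding exon (1747). All 3 parts were marked in 813 genes. Genes with only a coding exon peak had a strong one in 5.30% of cases, and those with only a 5' UTR peak in 2.61%, against 59.5% for those with only a 3' UTR peak.

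Peaks were most frequent in genes of middle abundance. In the 3 WT input libraries, the share of genes with a peak was 20.7 ± 0.306% under 1 FPKM and 78.2 ± 0.103% from 1 to 5 FPKM. It was 88.4 ± 0.0935% from 5 to 20 FPKM, 88.5 ± 0.106% from 20 to 100 FPKM, and 76.3 ± 0.123% at 100 FPKM and over (SD, n = 3). The SD shows only how genes move across the bounds of FPKM between libraries, since all 3 share 1 peak list, and it is no error of the peak calls. Strong peaks were likewise less frequent at the top, with 45.5 ± 0.179% of genes from 5 to 20 FPKM and 27.5 ± 0.526% at 100 FPKM and over. Genes with 2 or more peaks went from 46.9 ± 0.115% to 21.8 ± 0.151% between these classes. Depth is unknown, so the low share under 1 FPKM is given only as a value.

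**Figure D3:**
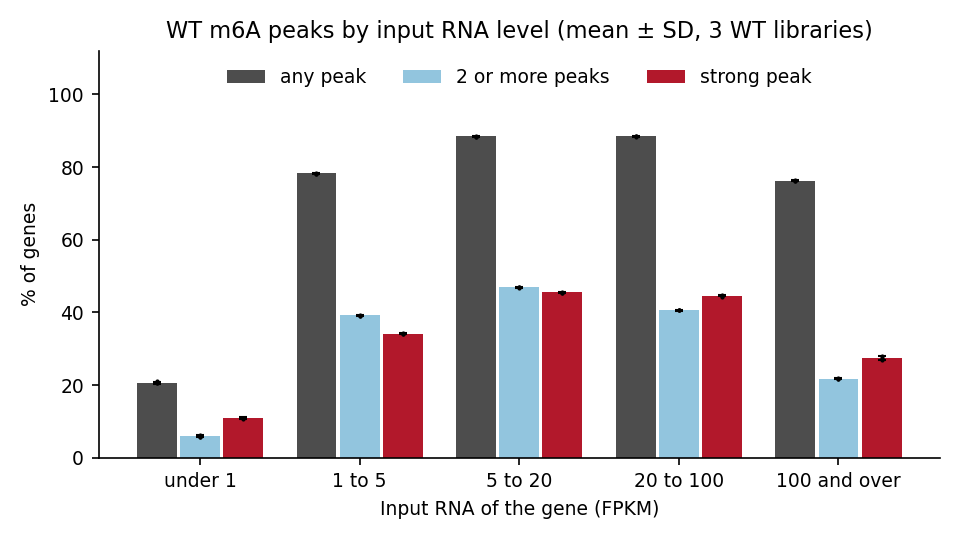
Share of genes (vertical axis, %) with any WT peak, with 2 or more peaks and with a strong peak, by the gene's input RNA in FPKM (horizontal axis); bars are means over the 3 WT input libraries, error bars the SD and dots the libraries. All 3 shares are highest in the middle classes and lower at 100 FPKM and over, where 76.3% of genes have a peak.

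Among genes with a peak, the rank correlation between RNA level and enrichment was weak, but the top class of FPKM stood lower. By mean WT FPKM, the median strongest log2 enrichment was 2.84 at 1 to 5 FPKM and 3.03 at 5 to 20 FPKM. It was 3.01 at 20 to 100 FPKM and 2.64 at 100 FPKM and over. In the same order, 43.65%, 51.2%, 50.6% and 35.9% of the genes with a peak had a strong one. Spearman's rho across genes between FPKM and the strongest peak was 0.0357, 0.0407 and 0.0454 in the 3 libraries (12275 to 12329 genes each), and against the strongest 3' UTR peak alone it was -0.0033, -0.0040 and 0.0021. These values describe genes that share libraries, and FPKM and enrichment share the input reads.

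Gene span went with the share of genes that had any, a strong or several peaks. Expressed genes were put into 4 groups of like size by span, with limits at 2159, 3390 and 5056 bases. From the shortest to the longest group, the share with no peak was 38.4%, 14.2%, 6.58% and 2.74%, and the share with a strong peak was 12.2%, 32.5%, 49.6% and 68.1%. The order of both shares was the same inside each of the 4 classes of FPKM from 1 up. The share with a coding exon peak had no such order, at 30.9%, 28.3%, 31.7% and 38.6%. Among the shortest genes alone, the share with a strong peak went up with FPKM, from 9.05% at 1 to 5 FPKM through 13.2% and 14.3% to 19.7% at 100 FPKM and over. Over genes of all spans it was 34.3%, 45.3%, 44.7% and 27.4% in the same classes, so the top class stood differently. Among the shortest genes the share with no peak was 46.8%, 33.0%, 31.3% and 33.6%. Short genes made up 274 of the 698 genes at 100 FPKM and over. Genes with no peak had a median span of 1765 bases, those with 1 peak 3085, those with 2 peaks 3934 and those with 5 or more 7114. Spearman's rho across genes with a peak between span and number of peaks was 0.349 ± 0.000651 (SD over the WT libraries, n = 3). The part of span in the differences between gene groups below was not tested. The median span is given with each of them except the metallothionein and lipid-transfer genes.

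**Figure D4:**
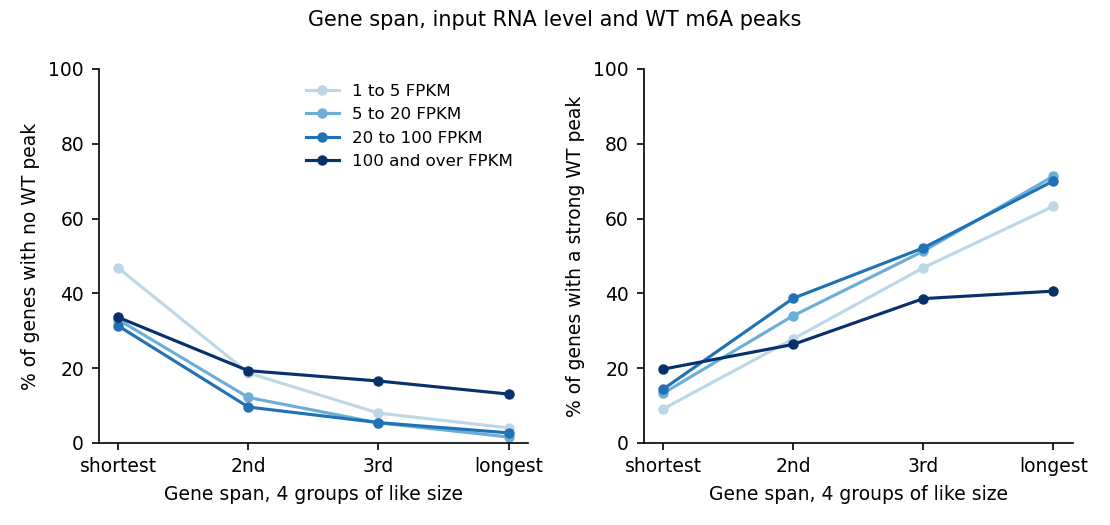
Share of expressed genes with no WT peak (left, %) and with a strong WT peak (right, %) in the 4 groups of gene span (horizontal axis), 1 line for each class of input RNA in FPKM. No-peak shares fall and strong shares rise from the shortest to the longest group in each class, least steeply at 100 FPKM and over, where 40.6% of the longest genes had a strong peak.

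Many of the most abundant mRNAs of the fruit had no listed peak. Of the 20 genes with most input RNA, 11 had no peak and 1 had a strong one, and of the top 100, 35 had no peak and 9 had a strong one, beside 15.5% and 40.6% of all expressed genes. The metallothionein-like gene FvH4_3g20030, whose protein class binds metal ions, stood first at 56889, 56286 and 57559 FPKM, 12.1%, 12.0% and 12.3% of all FPKM in the 3 libraries, and had no peak in the WT or the mutant list. It is short (chromosome 3, 13176492 to 13177331, plus strand, in the authors' coordinates, for which the sources used here name no genome build). Of the 4 expressed metallothionein genes 3 had no peak, among them metallothionein-like protein 1 (FvH4_3g36020) at 565, 599 and 623 FPKM and MET1 (FvH4_6g13710) at 575, 593 and 594 FPKM. Both were picked with their values known. All 3 lie in the shortest span group, where 38.4% of genes had no peak.

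Several cell wall and defence genes of the same rank were also without a peak. Endoglucanase 6 (FvH4_5g04490), of a family that cuts wall glucans, was at 2075, 2069 and 2083 FPKM. The gene FvH4_6g41380 for an exopolygalacturonase-like protein, an enzyme class that cuts pectin from chain ends, was at 2000, 2049 and 2056 FPKM. Both were alike in the 3 libraries and had no peak in either list. The non-specific lipid-transfer protein 1-like genes FvH4_6g09980 and FvH4_6g09970 were at means of 1925 and 1849 FPKM with no peak. Of 14 expressed genes named for lipid transfer, 10 had no peak and 0 had a strong one, beside 15.5% and 40.6% of all expressed genes. The median span of the 14 was not taken. FvH4_6g09980 and FvH4_6g09970 lie in the shortest span group, where 38.4% of genes had no peak and 12.2% a strong one. The glycolytic enzyme GAPC2 (FvH4_4g24420) had no peak at 2041, 1920 and 1879 FPKM.

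Several other abundant genes had peaks under the median log2 enrichment of all peaks, 2.28. Lipid transfer protein EARLI 1 (FvH4_5g18321), the runner-up among genes with a named protein at 17683, 15601 and 15473 FPKM, had a coding exon peak of log2 0.29. MLP-like protein 28 (FvH4_4g32700) at 3303, 3658 and 3813 FPKM had 1 of log2 0.22, the lowest enrichment in the list. Pectate lyase 8 (FvH4_4g05760), of the family that splits pectin when fruit softens, had 3' UTR peaks of log2 1 and 0.91 at 2779, 2671 and 2739 FPKM. Neither the EARLI 1 nor the MLP-like 28 peak overlapped a mutant peak. Thioredoxin H-type (FvH4_2g39210), a redox protein, and dehydrin COR47-like (FvH4_2g37690), which belongs to proteins made under water loss and in seeds, had 5' UTR peaks of log2 1.51 and 2.03. Both were above the median of all 5' UTR peaks, 1.28. The exception among the named genes of this rank was vinorine synthase-like FvH4_7g18570, of the acyltransferase family that includes fruit ester enzymes. Its RNA was at 3289, 3327 and 3339 FPKM, against 1.99, 1.31 and 1.57 FPKM in the mutant libraries. Its coding exon peak at 15470448 to 15470822 on chromosome 7 had a log2 enrichment of 3.13 and its 5' UTR peak 0.76, and no peak was listed for it in the mutant.

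The highest enrichments are ranked here among genes at 5 FPKM or more whose protein has a name. The 8 leading genes had mean WT inputs from 10.1 to 43.2 FPKM, beside a median of 8.64 FPKM over all expressed genes. The filter sets part of this: of the 263 peaks at log2 5 or more, 111 were in genes under 1 FPKM and 60 in genes at 1 to 5 FPKM. The pentatricopeptide repeat (PPR) gene FvH4_3g43180, of a family that binds organelle RNA, led with a 3' UTR peak of log2 8.08 (chromosome 3, 36054031 to 36054305, minus strand). That peak starts at the annotated end of the gene. The input of FvH4_3g43180 was 9.60, 9.21 and 11.53 FPKM. Another PPR gene of the same chromosome, FvH4_3g43110, had 3' UTR peaks of log2 7.06 and 4.68. Kelch domain-containing protein 4 (FvH4_5g07300) followed with 6.60, in a peak that lies over a gene of the opposite strand, and mitochondrial invertase A (FvH4_6g07880), which splits sucrose, with 6.57 in a peak of 100 bases. The next were a further PPR gene (FvH4_1g27040, 6.27), a glycine-rich cell wall structural protein (FvH4_3g23040, 5.81), the ABC transporter D family member 1 (FvH4_1g25840, 5.69) and auxin response factor 2 (FvH4_5g09310, 5.67), a repressor in auxin signalling. In the mutant list the strongest peaks of these 8 genes were 4.56, 5.79, 6.34, 4.78, 3.05, 5.67, 4.89 and 4.72 in the same order. The genes were picked for their high WT values, so lower values in the other list can come from the choice alone. The strongest peaks of a gene also need not be the same peak, and that of FvH4_1g27040 in WT overlapped no mutant peak. No change of m6A is read from these values. For the PPR genes as a group the picture was different: 59 of 239 expressed members (24.7%) had a strong peak, and 52.3% a coding exon peak (median span 3090 bases). In the span group of that median the shares were 32.5% and 28.3%, and over all expressed genes 40.6% and 32.4%.

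Strong peaks outside the 3' UTR were few. The largest in coding exons, again among genes at 5 FPKM or more with a named protein, were 4.33 in the cytochrome c oxidase assembly gene COX15 (FvH4_3g41910) and 4.29 in the keratin-like gene FvH4_4g13400. The glycine-rich RNA-binding protein RZ1B (FvH4_1g04120) followed with 4.08. In 5' UTRs the endochitinase PR4-like gene FvH4_4g10640, a defence protein, the transcription elongation factor SPT5 (FvH4_2g14770) and Dicer homolog 1 (FvH4_7g17920), which cuts microRNA precursors, came first with 5.13, 4.59 and 4.22. The COX15 and PR4-like peaks span 3512 and 8058 bases of the genome and lie over a further gene of the same strand.

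Of the genes with most peaks, those named here had 3 to 7 of them in coding exons. DEMETER-like FvH4_2g10170, a DNA glycosylase class that removes 5-methylcytosine, had 9 peaks at 6.84, 6.23 and 6.39 FPKM. Its 7 coding exon peaks ranged from log2 0.82 to 1.97, and its 3' UTR peaks were 2.52 and 2.36. The nuclear-pore anchor (FvH4_3g13850), the histone methyltransferase ASHH2 (FvH4_2g27880), the translation initiation factor eIF4G (FvH4_7g08960) and a nuclear matrix constituent protein (FvH4_6g45461) had 8 each. Their strongest peaks were log2 3.81, 2.46, 2.5 and 2.83. The nuclear matrix gene had as many 5' UTR peaks, 3, as coding exon peaks. In all, 10 expressed genes had 8 or more peaks, and 1932 had 2 or more in the 3' UTR alone.

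Transcripts of the m6A system carried peaks themselves. Of 11 expressed genes named as writers, erasers, readers or AlkB homologs, 8 had a strong peak, 10 had a 3' UTR peak and 1 had no peak (median span 4392 bases). A 3' UTR peak was found in 66.6% of all expressed genes and in 81.5% of those in the span group of that median, where 49.6% had a strong peak. The strongest enrichment of the m6A genes with a peak had a median of log2 3.13, just over the threshold of 3. It was 2.95 for all expressed genes with a peak. The list takes in AlkB homologs that act on DNA or tRNA in other species. YTH domain-containing protein 1 (FvH4_5g01140), a reader, had the strongest at 5.32, with input of 6.46, 5.71 and 6.71 FPKM. The FIP37 homolog (FvH4_5g05840), a subunit of the writer complex, had 3.98, and the MT-A70-like methyltransferase (FvH4_5g11050), its catalytic type, had 2.23 in the 3' UTR, over a gene of the opposite strand, and 2.33 in a coding exon. RNA demethylase ALKBH5 (FvH4_1g11920) had 3.03. The reader with most RNA, YTH2-like FvH4_3g45840 at 59.89, 61.40 and 58.33 FPKM, had no peak in either list, although it spans 38016374 to 38020905 on chromosome 3.

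In the plot of gene groups, the m6A genes were followed by groups of basic cell work. Proteasome subunits, which build the main protease of the cell, had a strong peak in 32 of 44 genes (72.7%, the same share as the m6A genes) and no peak in 2 (median span 3291 bases). The median strongest enrichment of those with a peak was 3.71, against 2.95 for all expressed genes with a peak. The subunits alpha type-6 (FvH4_6g35040, named after its values were seen) and beta type-3-A (FvH4_2g27460) had 3' UTR peaks of log2 4.14 and 3.02, at means of 108 and 182 FPKM. Respiratory chain genes had a strong peak in 41 of 67 (61.2%, median span 2684 bases), with 4.15 for the mitochondrial ATP synthase subunit beta (FvH4_4g26290), at 282, 279 and 274 FPKM. Splicing factors had one in 61 of 103 (59.2%, 3969 bases) and translation factors in 29 of 53 (54.7%, 3373 bases). The share was 40.6% of all expressed genes and 49.6% in the span group of the splicing factors. In the span group of the proteasome, respiratory chain and translation genes it was 32.5%.

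Ribosomal protein genes, which are abundant and short, often had a strong peak. Of 161 expressed cytosolic ribosomal protein genes, at a median of 124 FPKM and a median span of 1966 bases, 80 (49.7%) had a strong peak and 19 (11.8%) had none. Among all expressed genes of the span group in which that median lies, 12.2% had a strong peak and 38.4% had none. L13-2-like (FvH4_7g33460) had the strongest at 5.51, over a gene of the opposite strand, at 90.60, 91.60 and 86.77 FPKM. L23-like (FvH4_2g20670) was at 1.82 in a coding exon, and L27 (FvH4_6g39630) had no peak at 395, 364 and 396 FPKM. Ribosomal proteins come from gene copies of near-identical sequence, so reads may be split between copies. Plastid and other organelle ribosomal proteins had a strong peak in 37 of 74 (50.0%, 2298 bases), beside 32.5% in their span group. Elongation factor 1-alpha (FvH4_3g33150) at a mean of 1123 FPKM had a 3' UTR peak of only 1.25, and elongation factor 2 (FvH4_3g15630) at 402 FPKM had none.

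**Figure D5:**
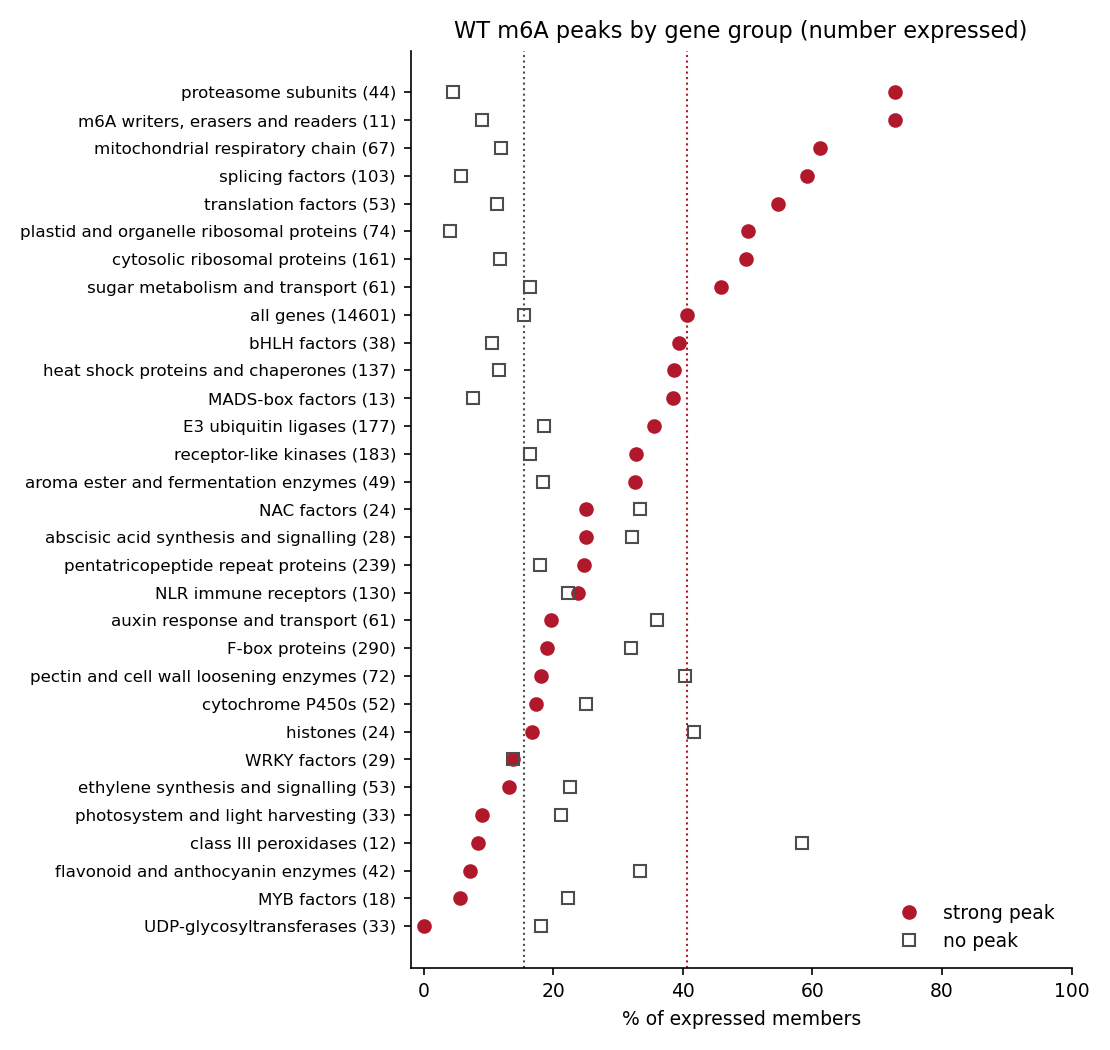
Share of the expressed members of each gene group (horizontal axis, %) with a strong WT peak (filled circles) and with no WT peak (open squares), with the number of expressed members in brackets; dotted lines are the shares of all expressed genes, 40.6% and 15.5%. Proteasome subunits and the m6A genes stand highest, both with 72.7% strong, and of the groups drawn UDP-glycosyltransferases are lowest with 0%.

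Groups tied to the fruit's wall, colour and scent had smaller shares of strong peaks than all expressed genes, and stood differently against genes of their own span. In the span group that holds the median of the wall and the aroma group, 32.5% of all genes had a strong peak and 14.2% had none. Of 72 expressed genes for pectin and wall loosening enzymes, 13 (18.1%) had a strong peak and 29 (40.3%) had none (median span 3375 bases). Among those at 5 FPKM or more, 18 of 53 had none, beside 12.4% of all genes at that level. Of 42 flavonoid and anthocyanin enzymes, 3 (7.14%) had a strong peak and 14 (33.3%) had none (1815 bases), beside 12.2% and 38.4% of all genes in their span group. Leucoanthocyanidin dioxygenase (FvH4_5g01170), which makes anthocyanidins, was at 437, 423 and 436 FPKM with a coding exon peak of 1.04. Anthocyanidin 3-O-glucosyltransferase 2 (FvH4_7g33840), which adds a sugar to the pigment, had a 3' UTR peak of 1.5, and dihydroflavonol 4-reductase (FvH4_2g39520), an earlier step, had 2.47. Both were picked with their values known. The strongest of the group, 3.40, was in anthocyanidin reductase (FvH4_3g02980), which leads to proanthocyanidins, at a mean of 10.7 FPKM. That peak is 100 bases long, lies over a gene of the opposite strand and overlaps no mutant peak.

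UDP-glycosyltransferases, which attach sugars to small molecules, had 0 strong peaks in 33 expressed genes (median span 2181 bases). A coding exon peak was found in 23 of them (69.7%), against 32.4% of all expressed genes, and a 3' UTR peak in 7. Class III peroxidases had no peak in 7 of 12 (58.3%, 2355 bases), and cytochrome P450s none in 13 of 52 (25%, 2661 bases). The UDP-glycosyltransferases and these 2 groups have their medians in one span group. In it 32.5% of genes had a strong peak and 14.2% had none, beside 40.6% and 15.5% of all expressed genes. Aroma ester and fermentation enzymes had a strong peak in 16 of 49 (32.7%, 3217 bases), beside 32.5% in their span group. The pattern of this group takes in a mitochondrial NAD(P)H-ubiquinone oxidoreductase (FvH4_6g44690), which had its strongest peak. The sugar metabolism and transport group had one in 28 of 61 (45.9%, 4046 bases), beside 49.6% in its span group.

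Hormone and regulatory genes were also mixed. In the abscisic acid group, 7 of 28 had a strong peak and 9 had none (median span 3023 bases). NCED1 (FvH4_3g05440), which makes the precursor of this ripening hormone, was at 128, 124 and 120 FPKM with a coding exon peak of 1.77, and ABI5-like protein 5 (FvH4_2g34330, named after its values were seen), a response factor, had a 3.29 peak. Ethylene genes had a strong peak in 7 of 53 (2078 bases), which is 13.2% beside 12.2% of genes in their span group. Auxin genes had one in 12 of 61 (19.7%, 2937 bases) and no peak in 22 (36.1%). Their median lies in the same span group as that of the abscisic acid genes, where 32.5% of genes had a strong peak and 14.2% had none. Histones, a group whose pattern takes in a histone chaperone, had none in 10 of 24 (41.7%, 1254 bases) and a strong peak in 16.7%, beside 38.4% and 12.2% in their span group. Over all expressed genes, 40.6% had a strong peak. Photosystem and light-harvesting genes had one in 3 of 33 (9.09%, 1576 bases), beside 12.2% in their span group. Chaperones had one in 53 of 137 (38.7%, 2899 bases), E3 ubiquitin ligases in 63 of 177 (35.6%, 3156 bases) and F-box proteins in 55 of 290 (19.0%, 2605 bases). In the span group that holds these medians the share was 32.5%. Receptor-like kinases had one in 60 of 183 (32.8%, 3925 bases), beside 49.6% in their span group.

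Among transcription factors, NAC genes had a strong peak in 6 of 24 (25%) and no peak in 8 (33.3%, median span 2546 bases). The NAC18-like gene FvH4_3g20700 had the most RNA, 771, 730 and 726 FPKM, and no peak in either list. NAC29 (FvH4_4g23130) and NAC72-like (FvH4_3g20690) also had no peak at means of 110 and 97.3 FPKM, whereas NAC78-like FvH4_2g13330 had a 3' UTR peak of 3.80 at 49.6 FPKM. These 3 were picked with their values known. MYB factors had a strong peak in 1 of 18 (5.56%, 2230 bases) and WRKY factors in 4 of 29 (13.8%, 2977 bases). Their medians lie in the span group of the NAC genes, where 32.5% of genes had a strong peak and 14.2% had none. Of all expressed genes, 15.5% had none. The bHLH factors had one in 15 of 38 (39.5%, 3528 bases), beside 49.6% in their span group and 40.6% of all expressed genes. MADS-box factors, a group whose pattern takes in AP2 genes, had one in 5 of 13 (38.5%, 4716 bases), beside 49.6% in their span group. AGL9 (FvH4_4g23530), a SEPALLATA-type gene of flower and fruit identity, was marked in all parts, with log2 3.01 in the 5' UTR, 1.52 in a coding exon and 3.06 in the 3' UTR, at 180.64, 182.86 and 191.73 FPKM. AGAMOUS (FvH4_3g06720, named after its values were seen), a carpel identity gene, had 2 peaks in the 3' UTR, the stronger at 3.03. Immune receptors of the NLR class had a strong peak in 31 of 130 (23.85%) and a coding exon peak in 84 (64.6%), with a median span of 4655 bases. In the span group of that median the shares were 49.6% and 31.7%.

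The WT list and the mutant list come from separate IP and input libraries. An overlap of 1 base or more with a mutant peak of the same strand was found for 19723 WT peaks, 82.3% of the WT list, and 79.3% of the mutant list overlapped a WT peak. The share was 48.8% under log2 1, 74.98% from 1 to 2, 89.0% from 2 to 3, 96.5% from 3 to 4, 96.9% from 4 to 5 and 90.9% at 5 or more. Weak coding exon peaks, under log2 1, were found in the mutant list in 45.7% of 1743 cases. Of the 2260 expressed genes with no WT peak, 480 (21.2%) had a mutant peak, and of the 166 at 100 FPKM or more, 135 had none in the mutant list either. Input RNA was different in the mutant, as for FvH4_6g50700, a putative quinone oxidoreductase at 1665, 1676 and 1637 FPKM in WT with no peak. It was at 73.8, 85.1 and 74.0 FPKM in the mutant, where it had a peak of log2 2.35.

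Genes with no WT peak made up 30.04%, 30.05% and 30.22% of all FPKM in the WT libraries and 34.34%, 35.27% and 36.98% in the mutant. The groups did not overlap (p = 0.1, two-sided exact permutation test, the smallest p of 3 against 3 libraries). Without the metallothionein-like gene FvH4_3g20030, which was at 102370, 109174 and 121590 FPKM in the mutant, the direction turned: the WT share was 20.4 ± 0.0488%, above the mutant share of 17.7 ± 0.203% (SD, n = 3, exact permutation p = 0.1). The direction of the difference thus rested on 1 gene.

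Input RNA was compared between genotypes with limma on log2(FPKM + 1), which understates changes of low genes, and the WT input libraries that enter it also made the WT peak list. At an adjusted p under 0.05, mutant input was higher for 48.3% and lower for 19.1% of the 15571 genes of the fit, with a median change of 0.25 on the log2 scale. Of 6181 genes with a strong WT peak, 3028 (49.0%) were higher and 878 (14.2%) lower. Of 2766 genes with no WT peak, 1384 (50.0%) were higher and 637 (23.0%) lower. The median change was 0.23 and 0.39 in the 2 classes. The fit took genes by their mean over both genotypes, so genes under 1 FPKM in WT entered only through higher values in the mutant. Of the genes at a mean of at least 1 FPKM in WT, 2260 had no peak, against the 2766 of the fit. The higher count and the median of the class with no peak are thus partly set by this filter. No difference between the classes is read from them. Rescaling each library to one median, which moved the median of all genes to 0.0016, gave 1691 strong-peak genes higher and 1904 lower, so the direction of the balance depends on the scaling. Vinorine synthase-like FvH4_7g18570 fell by 10.31 (SE 0.0795, adjusted p = 2.58e-13, limma) and AGL9 (FvH4_4g23530) fell by 1.81 (SE 0.0436, adjusted p = 3.38e-10, limma), and both carried strong WT peaks. The exopolygalacturonase-like gene FvH4_6g41380 fell by 10.1 (SE 0.0796, adjusted p = 2.58e-13, limma) and had none.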

How the data were processed

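The study holds 12 libraries in 4 groups of 3. Per the submitters' processing notes, FastQC, HISAT2 and StringTie were used; the sources used here do not name the peak caller, genome build or annotation. The authors' peak lists, 1 per genotype over 3 experiments per the file headers, give a log2 ratio of IP over input, p-values and a gene part. The p-value columns of the deposited lists were not used. Starts in the deposited lists count from 0 and were raised by 1. Deposited FPKM values per input library, made by the authors, were used as given, with no counts and so no known depth.

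Genes at a mean of at least 1 FPKM in WT were called expressed, and a log2 enrichment of 3 or more strong. Gene span comes from the expression table. Python 3.11.15 with pandas 2.3.3 and scipy 1.17.1 gave counts, rho and exact permutation tests. limma 3.58.1 in R 4.3.3 tested log2(FPKM + 1) over genes at a mean of 1 FPKM or more in the 6 input libraries, with trend and Benjamini-Hochberg adjustment, and was tested on simulated data. Replicates are biological per the labels.

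The 34 gene groups come from words in protein descriptions. Members and lists were chosen with earlier results of these data known. Named genes are the most abundant with and without a peak, the most enriched, those with most peaks, the leading members of each group and all m6A genes, and others are said to be named after their values were seen. Ranks were taken among genes with a named protein, which leaves out uncharacterized, hypothetical and unknown ones. Alternatives are given in the closing section.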

Additional observations from a re-analysis of the deposited data

How the results depend on the processing

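Of 96 values recomputed under alternatives, 64 kept direction and size, 28 moved and 4 reversed; leaving out the most abundant gene and leaving out the shortest genes were chosen after seeing the data. With only peaks of log2 1 or more, 60.3% of peaks lay in 3' UTRs, 86.4% overlapped a mutant peak, 81.7% of expressed genes had a peak and 34.9% had 2 or more. An overlap of 50% of the WT peak gave 76.7%. At 0.5 FPKM, at 5 FPKM and with no filter, the share of genes with a peak was 81.9%, 87.6% and 63.1%, with 2 or more 39.9%, 43.0% and 29.8%, and with a strong peak 39.3%, 43.8% and 30.6%. Merging peaks closer than 100 bases gave 36.8% of genes with 2 or more, and 3 or more peaks were found in 15.0%. Strong from log2 4 gave 10.3%, and genes longer than the shortest of 4 span groups gave 50.1%. The Spearman correlation across genes of FPKM and the strongest enrichment, 0.0438 on the mean FPKM, became 0.0372, -0.0339 and 0.00147 under those filters and 5.54e-05 for 3' UTR peaks. The WT minus mutant share of FPKM from genes with no peak, -5.43 points, became 2.77 without the most abundant gene. Rescaling to one median gave 1691 strong-peak genes higher and 1904 lower, strong from log2 4 gave 820 and 175, and no filter gave 2450 genes with no peak higher. The median change of strong-peak genes relative to all, -0.0135, became 0.0493 with no filter and 0.00315 from log2 4. Without each replicate in turn, the shares ranged from 84.4% to 84.5% (peak), 41.7% to 41.8% (2 or more) and 40.5% to 40.6% (strong), the Spearman correlation from 0.0423 to 0.0446, the FPKM share difference from -6.02 to -4.70, strong-peak genes from 2785 to 2855 higher and 788 to 849 lower, no-peak genes from 1289 to 1342 higher and 607 to 627 lower, and the relative median from -0.0149 to -0.0103. With the replicate number as a block, 2968 strong-peak genes were higher and 849 lower, and 1396 no-peak genes higher and 642 lower. Deviations of same-numbered libraries correlated at 0.0351, -0.0313 and 0.0287, so their FPKM values did not deviate together. The labels state no pairing, and these values cannot tell whether such libraries were made together. FPKM leave the depth unknown, and no IP library has its own value, so peak calls have no replicate error. The cause of these moves was not tested.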
